A study of Homo sapiens with 8 samples.

Results

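The genes that carry cells into and through mitosis were followed in Panc-1 cells after depletion of the chromatin reader PHF13 and treatment with TGFβ. The set was a list of 50 named mitotic regulators, which comprised entry kinases and cyclins, the spindle checkpoint, kinesins, cytokinesis factors, kinetochore and centromere proteins, the chromosomal passenger complex, condensin and spindle-binding proteins. All 50 were among the 13307 genes of the expression table. The list was drawn up by function and no measured value entered the rule. Earlier results of these data were known when it was chosen.

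Panc-1 is a human line that was established from a pancreatic ductal carcinoma, and the mRNA of its cells was sequenced in 4 conditions with 2 libraries each. The cells were transfected with control siRNA (siControl) or with siRNA against PHF13 (siPHF13) and kept untreated, or were given 10 ng/ml of TGFβ for 48 h from the day after transfection (siControl + TGFβ and siPHF13 + TGFβ), so that every condition had been through lipid transfection. TGFβ is a cytokine that induces epithelial-to-mesenchymal transition and slows the division of many epithelial cells. The libraries are described only as duplicates of 1 cell line, so that p-values measure the spread between these libraries, which may be technical.

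Most of these genes are transcribed late in the cell cycle. The MuvB complex with B-MYB and FOXM1 switches them on in G2 through a CHR element (cell cycle genes homology region), often beside CCAAT boxes bound by NF-Y, and the DREAM complex represses them through the same element in quiescent cells. Their proteins then act in sequence: cyclin B with CDK1 starts mitosis, Aurora and Polo-like kinases and kinesins build the spindle, and the checkpoint holds back the anaphase-promoting complex until each kinetochore is attached. The passenger complex, the central spindle and anillin then complete division. In RNA from whole cultures, fewer cells in G2 and mitosis cannot be told apart from less of these mRNAs per cell.

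The promoter sequences are shown because the members moved together with TGFβ and because these are the known elements of the class. RefSeq promoters (GRCh38.p14) were found for 44 of the 50 genes. In the 250 bases before the start site a CHR, taken as TTTGAA or TTCGAA on either strand, was found for 26 of the 44 genes (59.1%), against 17.2% of the 27305 genes with a promoter and 13.2% of the 10005 that were also in the expression table. CCAAT on either strand was found for 35 of the 44 (79.5%), against 37.0% and 41.2%, and both motifs for 21 (47.7%), against 6.24% and 5.38%. A gene with several start sites was counted once if any of its windows held the motif, and a CHR and a CCAAT may share an end base. A match describes the sequence only and no binding was measured. Genes with large changes could lack a motif: CCNB1, NEK2, BUB1 and SPC24 held no CHR match, and ANLN and NCAPG no CCAAT match. Such genes were left out of the promoters shown. The 5 promoters below have both motifs and belong to genes given library by library further on, of which those with the largest changes were taken, and lie on the plus strand for CCNB2, CDC20 and PLK1 and on the minus strand for SPC25 and TOP2A. Capitals mark the CHR (TTTGAA, or TTCAAA on the other strand) and the CCAAT box (ATTGG on the other strand).
CCNB2, chr15:59104896-59105145: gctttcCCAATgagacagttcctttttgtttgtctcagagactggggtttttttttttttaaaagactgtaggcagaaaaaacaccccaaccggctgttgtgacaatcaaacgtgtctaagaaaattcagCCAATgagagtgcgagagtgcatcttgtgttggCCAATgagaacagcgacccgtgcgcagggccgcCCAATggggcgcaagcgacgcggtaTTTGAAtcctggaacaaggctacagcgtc
SPC25, chr2:168890431-168890680: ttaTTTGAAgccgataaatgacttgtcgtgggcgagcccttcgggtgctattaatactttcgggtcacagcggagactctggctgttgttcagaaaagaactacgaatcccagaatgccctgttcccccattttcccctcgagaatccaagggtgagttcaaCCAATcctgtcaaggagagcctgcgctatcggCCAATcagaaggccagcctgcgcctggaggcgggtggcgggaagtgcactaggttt
TOP2A, chr17:40417897-40418146: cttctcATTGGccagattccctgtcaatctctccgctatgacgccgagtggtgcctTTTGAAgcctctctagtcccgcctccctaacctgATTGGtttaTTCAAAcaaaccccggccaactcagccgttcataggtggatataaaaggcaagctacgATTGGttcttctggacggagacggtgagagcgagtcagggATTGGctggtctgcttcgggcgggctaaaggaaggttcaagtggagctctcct
CDC20, chr1:43358731-43358980: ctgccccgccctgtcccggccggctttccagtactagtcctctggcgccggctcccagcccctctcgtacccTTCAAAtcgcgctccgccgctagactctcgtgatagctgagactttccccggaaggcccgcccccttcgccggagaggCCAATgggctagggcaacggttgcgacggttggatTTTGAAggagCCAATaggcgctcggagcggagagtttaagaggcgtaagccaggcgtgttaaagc
PLK1, chr16:23678639-23678888: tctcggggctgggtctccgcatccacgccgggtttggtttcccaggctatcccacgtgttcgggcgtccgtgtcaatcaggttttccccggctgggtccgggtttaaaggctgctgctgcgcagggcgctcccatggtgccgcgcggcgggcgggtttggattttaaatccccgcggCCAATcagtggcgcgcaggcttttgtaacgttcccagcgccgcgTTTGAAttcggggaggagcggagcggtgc
In CCNB2 and PLK1 the CHR began 29 bases before the start site, downstream of every CCAAT box in the window. In SPC25 it began 247 bases before the start, upstream of its CCAAT boxes at 88 and 56 bases. The promoters of TOP2A and CDC20 each held 2 CHR matches.

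Between 39196214 and 46700806 reads fell on genes in each library, and the values are these counts after the authors' DESeq2 normalization. PHF13 was read at 1804 and 1662 normalized counts in siControl and 524 and 558 in siPHF13, and with TGFβ at 1586 and 1709 in siControl and 513 and 529 in siPHF13, so that depletion was present in each siPHF13 library. The keratins KRT7, KRT8, KRT18 and KRT19 and vimentin were read in every library, as in a carcinoma line, and EPCAM at 115 to 306 normalized counts. Of markers of other cell types, the fibroblast gene PDGFRB was at 25.6 to 57.1 normalized counts, and PTPRC, PECAM1, PRSS1, INS and DCN were not among the genes of the table.

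The mitotic genes were lower with TGFβ in siControl cells, and the difference was smaller in siPHF13 cells. Relative to the siControl mean, the median member stood at 92.8% and 93.6% in the siPHF13 libraries, at 71.0% and 72.4% in the siControl + TGFβ libraries, and at 82.5% and 88.7% in the siPHF13 + TGFβ libraries. The 3 treated or depleted conditions therefore did not overlap in this median. The siControl libraries themselves were at 99.3% and 100.8%. Together the 50 genes took 0.730% and 0.737% of the normalized counts in siControl, 0.634% and 0.652% in siPHF13, 0.511% and 0.524% in siControl + TGFβ, and 0.565% and 0.574% in siPHF13 + TGFβ. By group mean, siControl was the highest condition for 36 genes and siPHF13 for 14, against 25.5% and 24.0% of all genes. No member was highest with TGFβ, where siControl + TGFβ was highest for 27.2% of all genes and siPHF13 + TGFβ for 23.3%. The lowest condition was siControl + TGFβ for 38 genes and siPHF13 + TGFβ for 12, against 28.5% and 25.2% of all genes. Where pairs of values follow without condition names, they are in the order siControl, siPHF13, siControl + TGFβ and siPHF13 + TGFβ. The median of all genes moved by at most 0.0057 on the log2 scale in every library.

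**Figure D1:**
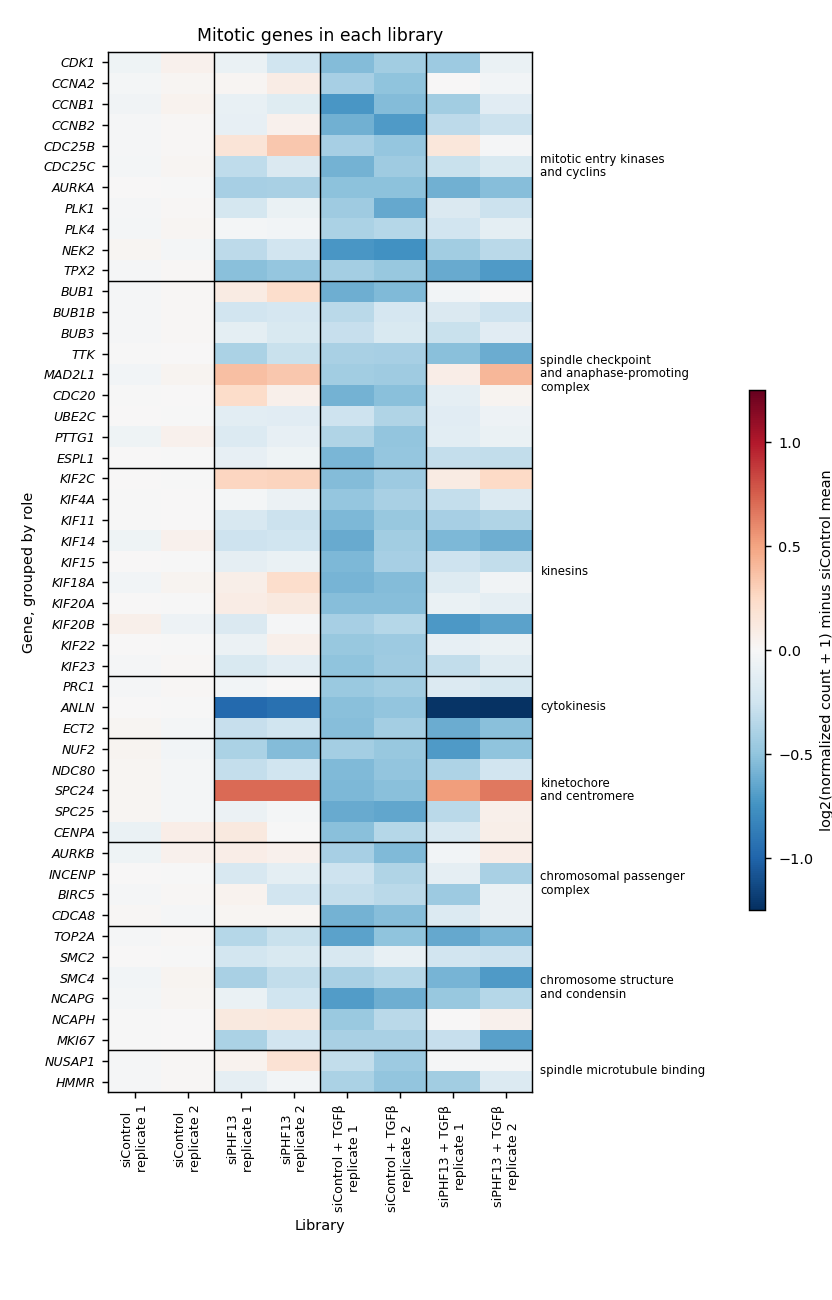
Heat map of the 50 mitotic genes (rows, grouped by role) in the 8 libraries (columns). Colour gives log2(normalized count + 1) minus the mean of the 2 siControl libraries, blue for lower and red for higher. The siControl + TGFβ columns are blue in every row, SPC24 is red in all siPHF13 columns and ANLN is darkest where depletion and TGFβ were combined.

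The first question was how control cells respond to TGFβ. All 50 genes had lower values, and for 50 of 50 both siControl + TGFβ libraries lay below both siControl libraries, a separation seen in 30.2% of all genes. An adjusted p under 0.05 (limma with Benjamini-Hochberg adjustment over all 13307 genes) was reached by 48 genes, all lower, against 6.67% of all genes. With the study's added threshold of 0.58 on the absolute log2 fold change, 7 genes fell, namely CCNB1, CCNB2, NEK2, BUB1, SPC25, TOP2A and NCAPG, against 1.52% of all genes. The median log2 fold change of the members was -0.48 and that of all genes -0.01. The fold changes spanned a narrow range, from -0.75 for NEK2 to -0.15 for SMC2, so that the threshold on the fold change separated genes of much the same response. Without siControl + TGFβ replicate 2, 12 genes passed both thresholds. BUB1 and TOP2A fell short of the fold threshold without siControl replicate 2 (-0.57 and -0.58) or siControl + TGFβ replicate 1 (-0.55 and -0.50), and BUB1 (-0.55) and SPC25 (-0.52) did so after correction for GC content and transcript length.

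The second question was whether cells depleted of PHF13 respond in the same way. In siPHF13 cells, 46 of the 50 genes had lower values with TGFβ, with a median log2 fold change of -0.15 against -0.01 for all genes. Both TGFβ libraries lay below both untreated ones for 32 genes, against 19.8% of all genes. KIF14, KIF20B, ANLN, ECT2, TOP2A and SMC4 reached an adjusted p under 0.05, against 0.857% of all genes, and of these KIF20B passed the fold threshold too, against 0.218% of all genes. KIF20B no longer passed that threshold after correction for GC content and transcript length (log2 fold change -0.54), nor without siPHF13 replicate 2 or without siPHF13 + TGFβ replicate 1. The number past the adjusted p alone was 3 without either siControl replicate and 1 without either siPHF13 replicate.

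The difference between these responses was tested as the interaction, the log2 response of siPHF13 cells to TGFβ less the response of siControl cells, in which a positive value is a smaller fall after depletion. It was above 0 for 49 of the 50 genes, all except KIF20B (-0.21), and for 48.3% of all genes, with a median of 0.31 against -0.01. At an unadjusted p under 0.05, 37 genes passed and each of them had a positive interaction, where 4.34% of all genes passed with a positive one. After adjustment only NEK2 passed in limma (interaction 0.64, adjusted p = 0.0208), with the fold threshold (0.0601% of all genes) and without it (0.0902%). The next smallest adjusted p was that of PTTG1 (interaction 0.47, adjusted p = 0.0568). DESeq2 on whole reads recovered from the values brought 13 members under an adjusted p of 0.05, and limma without siPHF13 + TGFβ replicate 1 brought 19, all with positive interactions. NEK2 itself no longer passed when any 1 library outside the siPHF13 + TGFβ pair was left out. By direction the smaller response was thus shared by nearly all members, and single genes seldom passed the correction. The members were read in the same libraries, so their number does not stand for independent repeats of this difference.

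**Figure D2:**
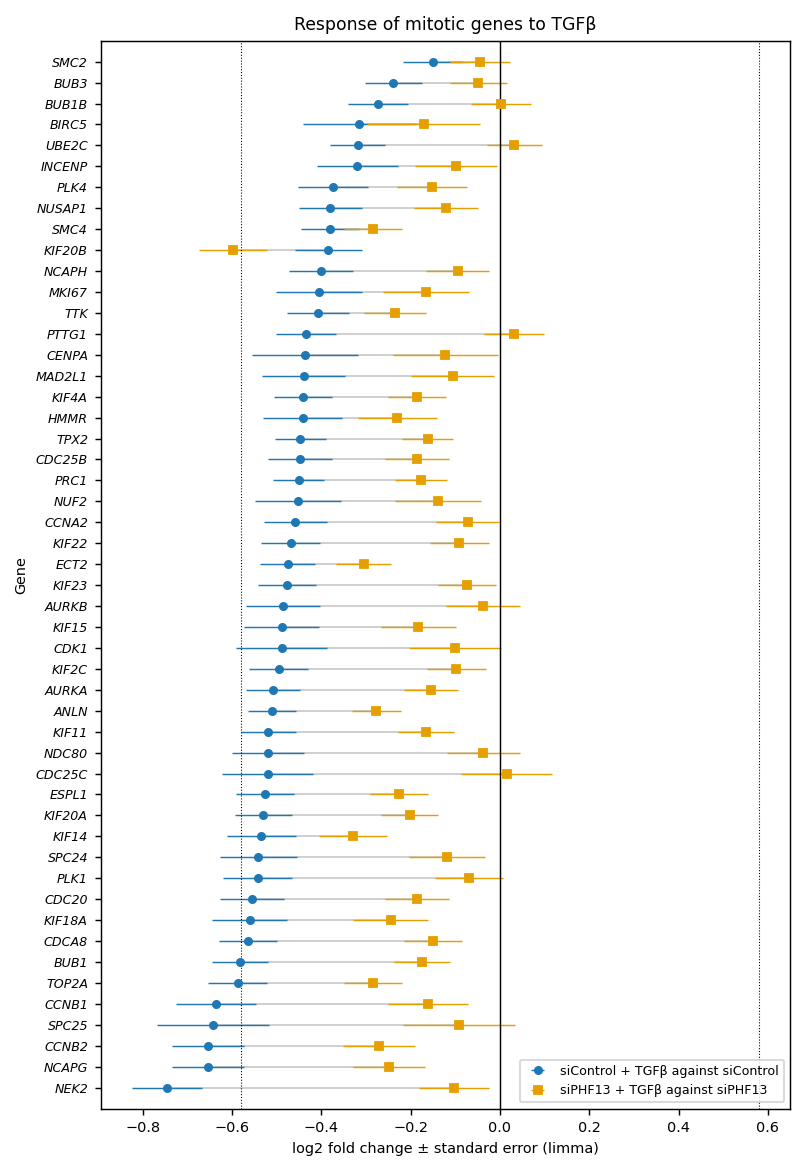
Response of each mitotic gene to TGFβ in siControl cells (blue circles) and in siPHF13 cells (orange squares), as log2 fold change with its standard error from limma and 2 libraries per condition. Dotted lines mark 0.58 on either side of 0. All circles lie below 0, and each square lies to the right of its circle except that of KIF20B.

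Depletion of PHF13 was also compared within each treatment. Without TGFβ, 36 of the 50 genes had lower and 14 higher values in siPHF13 than in siControl cells, with a median log2 fold change of -0.11 against -0.00 for all genes. SPC24 rose past both thresholds (7.95% of all genes rose so) and ANLN fell (10.4%). By adjusted p alone 5 members rose, against 23.1% of all genes, and 15 fell, against 24.3%. The members that rose, SPC24, MAD2L1, KIF2C, CDC25B and BUB1, were thus a smaller share than among all genes, and those that fell a share near it. BUB1 was at the limit (log2 fold change 0.16, adjusted p = 0.0494 in limma and 0.0517 in DESeq2). Without siControl replicate 1 or 2, 11 or 12 members in place of 20 passed the adjusted p.

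With TGFβ, 38 genes had higher and 12 lower values in siPHF13 than in siControl cells, with a median log2 fold change of 0.23 against 0.00. SPC24, MAD2L1 and KIF2C rose past both thresholds, against 8.81% of all genes, and ANLN fell, against 11.7%. By adjusted p alone 29 members rose, against 24.5% of all genes, and 4 fell (TPX2, KIF20B, ANLN and SMC4), against 25.9%. After correction for GC content and transcript length 2 fell, without KIF20B and SMC4. The number that rose stayed at 29, but its members changed. In limma UBE2C (log2 fold change 0.01, adjusted p = 0.945) and PTTG1 (0.15, adjusted p = 0.0949) no longer passed. BUB3, KIF11 and TOP2A passed only with the correction. Both siPHF13 + TGFβ libraries lay above both siControl + TGFβ libraries for 32 genes, against 35.6% of all genes. For 24 members depletion gave a lower mean without TGFβ and a higher mean with it, an order found in 7.94% of all genes. The mean was higher after depletion in both settings for 14 members and lower in both for 12, against 42.4% and 42.2% of all genes. Without siPHF13 + TGFβ replicate 1, 7 members in place of 4 passed both thresholds.

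**Figure D3:**
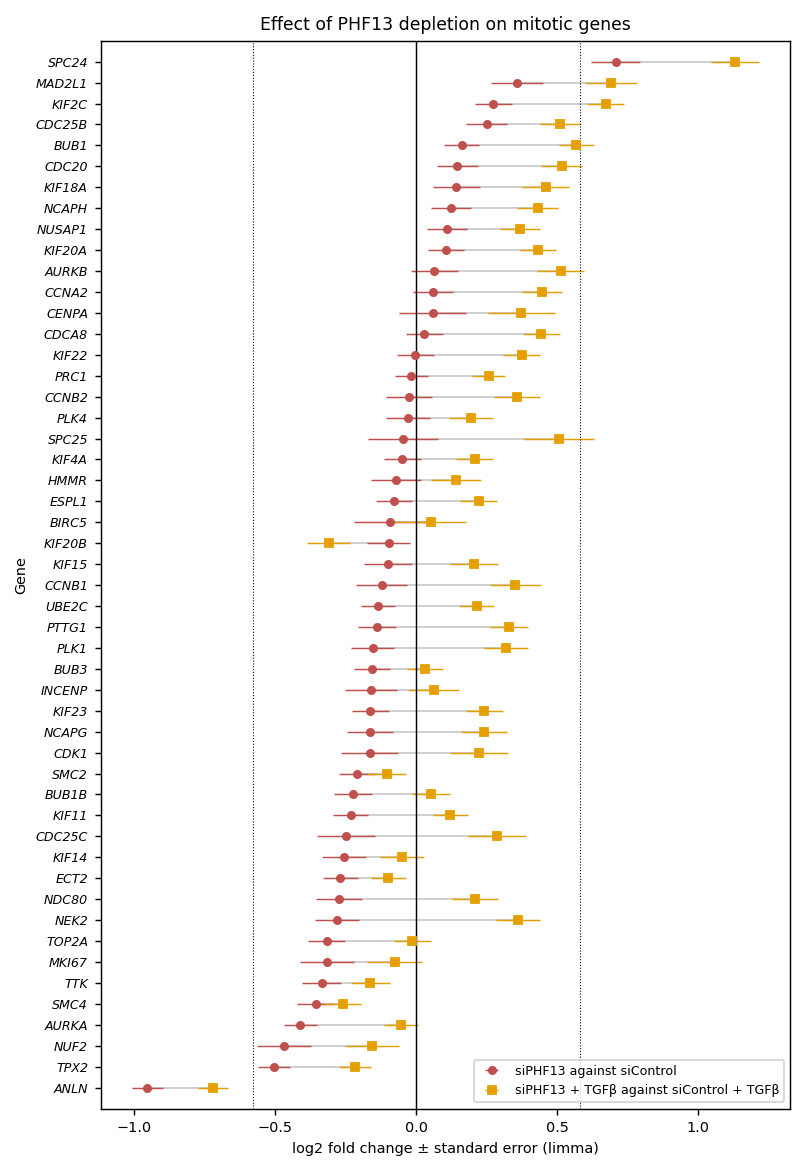
Effect of PHF13 depletion on each mitotic gene without TGFβ (red circles) and with TGFβ (orange squares), as log2 fold change with its standard error from limma and 2 libraries per condition. Dotted lines mark 0.58 on either side of 0. SPC24 is at the far right in both settings and ANLN at the far left, and 24 genes pass from below 0 without TGFβ to above 0 with it.

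Among the kinases and cyclins of mitotic entry, all 11 fell with TGFβ in siControl cells by adjusted p, against 6.67% of all genes. NEK2, CCNB2 and CCNB1 passed the fold threshold too, against 1.52% of all genes. NEK2, a kinase that splits the centrosomes, had 2104 and 2029 normalized counts in siControl, 1648 and 1751 in siPHF13, 1244 and 1219 in siControl + TGFβ and 1525 and 1639 in siPHF13 + TGFβ. The 4 conditions did not overlap, and both siControl + TGFβ libraries were the lowest. In limma NEK2 fell with TGFβ in siControl cells (log2 fold change -0.75, standard error 0.08, adjusted p = 2.12e-05) and fell with depletion in the absence of TGFβ (log2 fold change -0.28, adjusted p = 0.00867). It rose with depletion in the presence of TGFβ (log2 fold change 0.36, adjusted p = 0.00161).

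CCNB1, the main cyclin partner of CDK1, was read at 7645 and 8105 in siControl, 7365 and 7095 in siPHF13, 4740.3 and 5413 in siControl + TGFβ and 5842 and 7152 in siPHF13 + TGFβ (limma, TGFβ in siControl cells: log2 fold change -0.64, standard error 0.09, adjusted p = 2.52e-04). The last pair of libraries lay wide apart, with one near the TGFβ-treated controls and the other near the untreated depleted cells. CCNB2, a second B-type cyclin, was read at 2023 and 2066, 1904 and 2118, 1349 and 1252 and 1632 and 1698 in the same order (limma, TGFβ in siControl cells: log2 fold change -0.65, standard error 0.08, adjusted p = 9.27e-05). CDK1 was read at 4671 and 5026, 4587 and 4068, 3326 and 3582 and 3546 and 4575, and its fall with TGFβ in siControl cells was smaller than the threshold (limma, log2 fold change -0.49, adjusted p = 0.00474). For both cyclins, both siControl + TGFβ libraries were below all the other libraries, and for CDK1 they overlapped with one siPHF13 + TGFβ library. The response of CCNB1 was below the fold threshold without siControl + TGFβ replicate 1 (log2 fold change -0.54) and after the GC and length correction (-0.55).

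AURKA, the kinase of spindle poles, and its activator TPX2 behaved differently from the cyclins. AURKA had 5735 and 5733 normalized counts in siControl, 4309 and 4321 in siPHF13, 4029 and 4031 in siControl + TGFβ and 3790.2 and 3966 in siPHF13 + TGFβ, and TPX2 had 23859 and 24221, 16720.1 and 17212, 17939 and 17335 and 15574 and 14757. Both genes fell with depletion in the absence of TGFβ, AURKA to a log2 fold change of -0.41, adjusted p = 8.54e-05, and TPX2 to -0.50, adjusted p = 9.03e-06 (limma). With TGFβ, TPX2 was still lower after depletion (log2 fold change -0.22, adjusted p = 0.00576, limma), and AURKA had a log2 fold change of -0.06, adjusted p = 0.469. For both genes the libraries with depletion and TGFβ combined were the lowest. PLK1, the Polo-like kinase of entry and spindle assembly, was read at 4752 and 4867, 4119 and 4533, 3525 and 3093 and 4246 and 3992, and rose with depletion in TGFβ-treated cells (limma, log2 fold change 0.32, adjusted p = 0.00343). CDC25B, a phosphatase that activates CDK1, was the only member of this group to rise with depletion alone (limma, log2 fold change 0.25, adjusted p = 0.011). It was also higher after depletion with TGFβ (log2 fold change 0.51, adjusted p = 5.19e-05).

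All 9 genes of the spindle checkpoint and the anaphase-promoting complex fell with TGFβ in siControl cells by adjusted p, against 6.67% of all genes. BUB1, a checkpoint kinase at the kinetochore, was read at 6548 and 6665 normalized counts in siControl, 7083 and 7700.2 in siPHF13, 4317 and 4510.2 in siControl + TGFβ and 6446 and 6634 in siPHF13 + TGFβ. Its level in depleted cells with TGFβ overlapped that of untreated controls, and in limma it fell with TGFβ in siControl cells (log2 fold change -0.58, standard error 0.06, adjusted p = 2.79e-05) and was higher after depletion with TGFβ (log2 fold change 0.57, adjusted p = 6.48e-06). MAD2L1, which encodes the checkpoint protein MAD2 that inhibits CDC20, rose with depletion in both settings, from 2328 and 2430.0 to 3094 and 2999 without TGFβ (log2 fold change 0.36, adjusted p = 0.00609, limma) and from 1758 and 1751 to 2521 and 3179 with it (log2 fold change 0.69, adjusted p = 3.52e-05, limma). Its siPHF13 + TGFβ libraries lay far apart, and without replicate 2 of that condition the log2 fold change was 0.52, under the threshold.

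BUB1B, which encodes the checkpoint protein BUBR1, was read at 4077 and 4150.1, 3488 and 3552, 3266 and 3549.6 and 3627 and 3429. BUB3, their common partner, was read at 12956 and 13222, 11996 and 11466, 10745 and 11448 and 10826 and 11872. These checkpoint genes responded least in their group, with log2 fold changes of -0.27 and -0.24 for TGFβ in siControl cells. CDC20, which activates the anaphase-promoting complex, was read at 6715 and 6729.6, 7882 and 7018, 4473 and 4678 and 6216 and 6876, and rose with depletion in TGFβ-treated cells (limma, log2 fold change 0.52, adjusted p = 4.79e-05). UBE2C, the ubiquitin-conjugating enzyme of that complex, had 8395 and 8329.8, 7631 and 7589.7, 6978 and 6441 and 7577 and 7986 normalized counts, and PTTG1, the securin it destroys, had 5253 and 5689, 4859 and 5082, 4203 and 3896 and 4994 and 5169.6. For both, the depleted libraries with and without TGFβ overlapped, and the log2 response to TGFβ was 0.03 and 0.03 in siPHF13 cells against -0.32 and -0.43 in siControl cells.

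The 10 kinesins, motors of the spindle and of chromosomes, all fell with TGFβ in siControl cells by adjusted p, against 6.67% of all genes. None passed the fold threshold. Depletion in TGFβ-treated cells raised 6 of them by adjusted p, against 24.5% of all genes, and lowered KIF20B, against 25.9%. KIF2C, a microtubule depolymerase that corrects faulty attachments, was read at 5029 and 4966 normalized counts in siControl, 6019 and 6063 in siPHF13, 3440.2 and 3654 in siControl + TGFβ and 5376 and 5927 in siPHF13 + TGFβ. It rose with depletion by 0.27 on the log2 scale without TGFβ (adjusted p = 0.00383, limma) and by 0.67 with it (adjusted p = 2.25e-06). KIF11, the motor that pushes the spindle poles apart, was read at 6154 and 6215, 5382 and 5146, 4187 and 4449 and 4630.1 and 4756, so that both siPHF13 + TGFβ libraries lay between the untreated depleted and the treated control libraries. KIF14, which works at the central spindle in cytokinesis, was read at 3594 and 3874, 3108 and 3142, 2409.5 and 2754 and 2534 and 2442, and fell with TGFβ after depletion as well (limma, log2 fold change -0.33, adjusted p = 0.0318).

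KIF20B, a kinesin of the central spindle and midbody, was the only one of the 50 with an interaction below 0. It was read at 4237 and 3883 normalized counts in siControl, 3569.8 and 4027 in siPHF13, 3052 and 3163 in siControl + TGFβ and 2461 and 2551 in siPHF13 + TGFβ. The depleted libraries with TGFβ lay below all others, where for most members they lay above the treated controls. By group mean that condition was the lowest for 12 members, KIF20B among them. In limma TGFβ lowered it in siControl cells (log2 fold change -0.38, standard error 0.08, adjusted p = 0.00307) and in siPHF13 cells (log2 fold change -0.60, standard error 0.08, adjusted p = 3.55e-04), and depletion lowered it with TGFβ (log2 fold change -0.31, adjusted p = 0.00362). The last of these was lost after the GC and length correction in limma (log2 fold change -0.14, adjusted p = 0.099). The difference between the responses did not pass (interaction -0.21, adjusted p = 0.577).

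Of the cytokinesis genes, ANLN, which encodes the contractile ring scaffold anillin, showed the strongest fall of any member after depletion. It was read at 25902 and 25800.4 normalized counts in siControl, 13198 and 13508 in siPHF13, 17940.4 and 18369 in siControl + TGFβ and 11051 and 10993 in siPHF13 + TGFβ. The conditions did not overlap, and the order ran from siControl over siControl + TGFβ and siPHF13 to the combination. In limma depletion lowered ANLN without TGFβ (log2 fold change -0.95, standard error 0.05, adjusted p = 1.93e-08) and with it (log2 fold change -0.72, standard error 0.05, adjusted p = 2.00e-07), and TGFβ lowered it in siControl (log2 fold change -0.51, adjusted p = 2.45e-05) and in siPHF13 cells (log2 fold change -0.28, adjusted p = 0.0108). ECT2, which activates RHOA at the cell equator, also fell in limma, with a log2 fold change of -0.27, adjusted p = 0.00274 for depletion alone, of -0.48, adjusted p = 1.35e-04 for TGFβ in siControl cells and of -0.31, adjusted p = 0.0131 for TGFβ in siPHF13 cells. PRC1, which bundles the central spindle, had a log2 fold change of -0.02, adjusted p = 0.827 for depletion alone.

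The NDC80 complex links kinetochores to microtubules through 4 subunits, and its mRNAs diverged after depletion. SPC24 was read at 1003 and 971 normalized counts in siControl, 1613 and 1609.9 in siPHF13, 668 and 688 in siControl + TGFβ and 1415 and 1557 in siPHF13 + TGFβ. SPC25, its direct partner, was read at 737 and 708, 687 and 711, 466 and 459 and 571 and 754. Every siPHF13 library thus exceeded every control library for SPC24, and no such order was seen for SPC25. In limma SPC24 rose with depletion without TGFβ (log2 fold change 0.71, standard error 0.09, adjusted p = 1.63e-05) and with it (log2 fold change 1.13, standard error 0.09, adjusted p = 2.11e-07), the strongest rises among the members, and SPC25 had log2 fold changes of -0.05, adjusted p = 0.782 and of 0.50, adjusted p = 0.00423. The latter value of SPC25 was 0.70 without siPHF13 + TGFβ replicate 1 and 0.30 without replicate 2, where it no longer passed in limma (adjusted p = 0.059). NDC80, which makes the contact with the microtubule together with NUF2, was read at 1842 and 1785, 1475 and 1525, 1239 and 1292 and 1389 and 1538, and NUF2 at 1452 and 1381, 1077 and 973, 1054 and 1017 and 866 and 998. Both fell with depletion alone (limma, log2 fold change -0.27, adjusted p = 0.013 for NDC80 and log2 fold change -0.47, adjusted p = 0.00125 for NUF2). All 4 subunits fell with TGFβ in siControl cells, and SPC25 passed the fold threshold (log2 fold change -0.64, standard error 0.13, adjusted p = 0.00297).

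**Figure D4:**
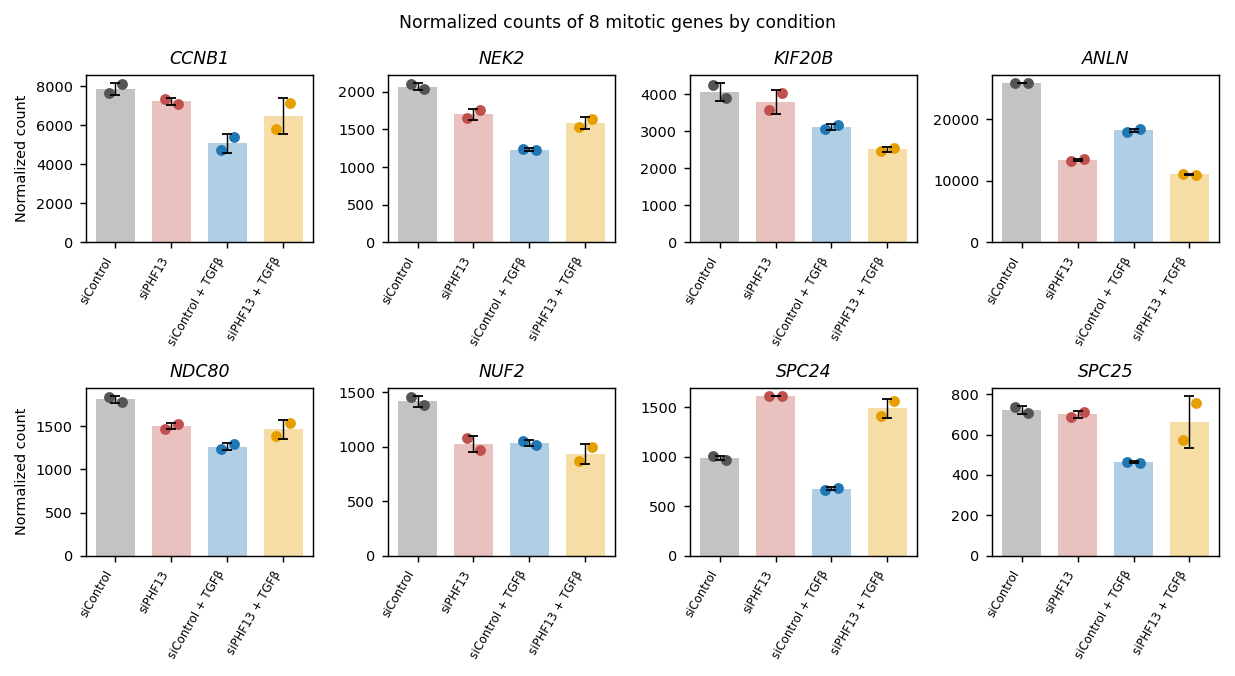
Normalized counts of 8 mitotic genes in the 4 conditions. Points are the 2 libraries, bars their mean and error bars their standard deviation, on axes that start at 0. CCNB1, NEK2, NDC80, SPC24 and SPC25 are lowest in siControl + TGFβ, KIF20B, ANLN and NUF2 are lowest in siPHF13 + TGFβ, and SPC24 is the only one whose siPHF13 bars both exceed the siControl bar.

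Of the 4 genes of the chromosomal passenger complex, 3 fell with TGFβ in siControl cells by adjusted p, against 6.67% of all genes. The log2 fold changes of all 4 with depletion alone lay between -0.16 and 0.06. AURKB, its kinase, was read at 1675 and 1799 normalized counts in siControl, 1834 and 1796 in siPHF13, 1298 and 1184 in siControl + TGFβ and 1694 and 1845 in siPHF13 + TGFβ. Its treated controls lay apart from the other 3 conditions, which overlapped, and it fell with TGFβ in siControl cells (log2 fold change -0.49, adjusted p = 0.00116, limma) and rose with depletion in TGFβ-treated cells (log2 fold change 0.51, adjusted p = 1.73e-04). BIRC5, the survivin subunit, was read at 957 and 979, 1001 and 823, 788 and 767 and 707 and 918, and its depleted libraries lay far apart. None of its differences passed in limma (log2 fold change -0.32, adjusted p = 0.113 for TGFβ in siControl cells). CDCA8, the borealin subunit, fell with TGFβ (limma, log2 fold change -0.56, adjusted p = 5.23e-05) to just short of the fold threshold.

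Of the 6 genes of chromosome structure, 5 fell with TGFβ in siControl cells by adjusted p, against 6.67% of all genes. With depletion alone 4 fell by adjusted p, against 24.3% of all genes. Of these 4, SMC2 no longer passed after the GC and length correction in limma (log2 fold change -0.09, adjusted p = 0.209). TOP2A, the topoisomerase that untangles sister chromatids, was read at 23960.2 and 24321 normalized counts in siControl, 18897 and 19865 in siPHF13, 15145 and 17042 in siControl + TGFβ and 15539 and 16281 in siPHF13 + TGFβ. It fell with depletion (log2 fold change -0.32, adjusted p = 0.0013, limma) and with TGFβ in siControl cells (log2 fold change -0.59, standard error 0.07, adjusted p = 3.78e-05), and with TGFβ its depleted and control libraries overlapped. Of the condensin core subunits, SMC4 was read at 10712 and 11232, 8272 and 8874, 8297 and 8551 and 7342 and 6734, and SMC2 at 3342 and 3327, 2842 and 2931, 2893 and 3122 and 2818 and 2781. SMC4 fell in all 4 comparisons of conditions by adjusted p. Its log2 fold changes were -0.36, -0.38, -0.26 and -0.29 for depletion, TGFβ in siControl, depletion with TGFβ and TGFβ in siPHF13. In siControl cells SMC2 had the smallest response to TGFβ of all members (log2 fold change -0.15, adjusted p = 0.158, limma). The fall of SMC4 with depletion in treated cells was lost after the GC and length correction in limma (log2 fold change -0.11, adjusted p = 0.126). NCAPG, a regulatory subunit of condensin I, was read at 2598 and 2704, 2509.5 and 2229, 1632 and 1738 and 1913 and 2070.3, and fell with TGFβ in siControl cells (log2 fold change -0.65, standard error 0.08, adjusted p = 9.28e-05, limma). MKI67, which encodes the proliferation marker Ki-67 that coats mitotic chromosomes, was read at 29131 and 29423, 22326 and 24723, 22096 and 22111 and 23987 and 18309. It fell with depletion (log2 fold change -0.32, adjusted p = 0.0147, limma) and with TGFβ (log2 fold change -0.41, adjusted p = 0.0108), and its siPHF13 + TGFβ libraries stood on either side of the treated controls. NCAPG shares 1634 exonic bases (33.7%) with LCORL and SMC4 shares 1553 (19.0%) with TRIM59, both on the opposite strand. Whether counting used the strand is not given in the sources used here, and their values are uncertain to that extent.

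NUSAP1 and HMMR, which bind spindle microtubules, both fell with TGFβ in siControl cells (limma, log2 fold change -0.38, adjusted p = 0.0022 and log2 fold change -0.44, adjusted p = 0.00332). The other 14 members were CCNA2, CDC25C, PLK4, TTK, ESPL1, KIF4A, KIF15, KIF18A, KIF20A, KIF22, KIF23, INCENP, CENPA and NCAPH. All 14 fell with TGFβ in siControl cells by adjusted p, against 6.67% of all genes. Their log2 fold changes ran from -0.56 for KIF18A to -0.32 for INCENP. None of them passed the adjusted p with TGFβ in siPHF13 cells, where their log2 fold changes ran from -0.24 to 0.01. With TGFβ, 10 of the 14 were higher after depletion by adjusted p, against 24.5% of all genes, up to 0.46 for KIF18A. In that comparison 13 had values above 0, against 50.3% of all genes. The exception was TTK, the checkpoint kinase also called MPS1, which was read at 3639 and 3683, 2785 and 3022, 2772 and 2747 and 2541 and 2389 normalized counts. Its libraries with depletion and TGFβ combined were the lowest, with a log2 fold change of -0.16, adjusted p = 0.0644 against the treated controls in limma, and it was the only one of the 14 to fall with depletion alone (log2 fold change -0.34, adjusted p = 0.00129).

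By group, the median interaction was 0.39 for entry kinases and cyclins, 0.33 for the checkpoint group, 0.32 for kinesins, 0.23 for cytokinesis, 0.42 for kinetochore and centromere genes, 0.32 for the passenger complex, 0.27 for chromosome structure and 0.24 for spindle microtubule binding. Exons of BUB1B, PRC1, CENPA and NUSAP1 are shared with another gene on the same strand, and related copies of CCNB2, AURKA, NEK2, BUB1, BUB3, MAD2L1, CDC20, UBE2C, AURKB, SMC4, NCAPG, MKI67, KIF4A and PTTG1, most of them pseudogenes, were not among the genes of the table. The split of shared reads is uncertain for all of these genes.

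Mitotic genes outside the list gave a more mixed picture. Of 97 other mitotic genes, 59 fell and 3 rose with TGFβ in siControl cells by adjusted p, where 6.67% of all genes fell and 9.21% rose, and their median log2 fold change was -0.36. In siPHF13 cells 5 fell and 1 rose, where 0.857% of all genes fell and 2.22% rose. With TGFβ, 43 were higher and 11 lower after depletion by adjusted p, where 24.5% of all genes were higher and 25.9% lower, and the interaction was above 0 for 78, against 48.3% of all genes. CENPE, the kinesin that carries chromosomes to the spindle equator, had 2828 and 2467 normalized counts in siControl, 1616 and 1649 in siPHF13, 2187 and 2038 in siControl + TGFβ and 648 and 792 in siPHF13 + TGFβ. Its treated depleted libraries lay far below all others, and it was the one gene of this list with an interaction past the threshold, in the direction opposite to that of NEK2 (limma, interaction -0.86, standard error 0.14, adjusted p = 0.0175). The GC and length correction is not given for CENPE. CENPF, a kinetochore protein, fell with depletion (log2 fold change -0.78, adjusted p = 2.98e-07, limma) and ZW10, a kinetochore protein that recruits dynein, rose (log2 fold change 0.96, adjusted p = 2.52e-06). NEK7, a kinase related to NEK2, fell with depletion (log2 fold change -0.82, adjusted p = 6.82e-07, limma). With TGFβ in siControl cells the largest changes were falls of OIP5 (-0.77), DEPDC1B (-0.73) and PBK (-0.71) and a rise of SPDL1 (0.67), a kinetochore adaptor for dynein.

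DNA replication genes, which act before mitosis, were examined beside them. Of 48 such genes, 34 fell with TGFβ in siControl cells by adjusted p (limma), against 6.67% of all genes, and 47 had a log2 fold change below 0, with a median of -0.36. In siPHF13 cells the median was -0.06. In TGFβ-treated cells 31 were higher and 3 lower after depletion by adjusted p, against 24.5% and 25.9% of all genes, with a median of 0.32, and the interaction was above 0 for 47, against 48.3%. The largest of these rises were those of RFC2 (0.82), POLA2 (0.82), POLD1 (0.79) and RPA3 (0.74). ORC1, which marks replication origins, had the one interaction past both thresholds (interaction 0.64, adjusted p = 0.0485, limma), against 0.0601% of all genes. Its adjusted p lay close to 0.05, and fits without single libraries are not given for it. TYMS, thymidylate synthase, had the largest fall with TGFβ in siControl cells (log2 fold change -0.73, adjusted p = 1.94e-04). The median interaction of these S phase genes was 0.28.

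**Figure D5:**
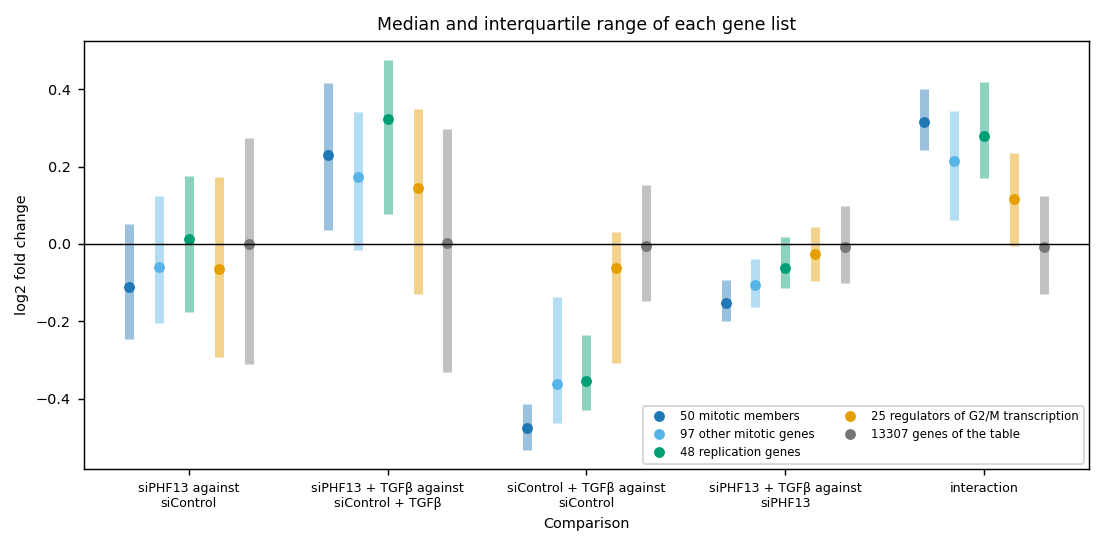
Median (point) and interquartile range (bar) of the log2 fold changes of each gene list in each comparison, with all 13307 genes in grey. With TGFβ in siControl cells the mitotic, other mitotic and replication lists lie below 0 with medians of -0.48, -0.36 and -0.36, and in the interaction their medians are 0.31, 0.22 and 0.28.

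Among 25 regulators of G2 and M phase transcription, the activators FOXM1 and B-MYB stayed within the fold threshold in every comparison. FOXM1 was read at 3247 and 3437 normalized counts in siControl, 3271 and 3713 in siPHF13, 2926 and 2413 in siControl + TGFβ and 3628 and 2937 in siPHF13 + TGFβ, and its log2 fold change with TGFβ in siControl cells was -0.33, adjusted p = 0.0528 in limma. MYBL2, which encodes B-MYB, was read at 3855 and 3526, 4116 and 4322, 3114 and 2850.1 and 4379 and 4105, fell with TGFβ in siControl cells (log2 fold change -0.31, adjusted p = 0.011, limma) and rose with depletion in treated cells (log2 fold change 0.51, adjusted p = 6.28e-05). E2F2 and E2F8 fell with TGFβ in siControl cells (limma, log2 fold change -0.90, adjusted p = 3.08e-04 and log2 fold change -0.70, adjusted p = 6.12e-04), and E2F1, an activator of replication genes, rose with depletion in treated cells (log2 fold change 0.76, adjusted p = 8.72e-06), as did E2F8 (log2 fold change 0.69, adjusted p = 1.52e-04). NFYA, a subunit of NF-Y, was read at 2297 and 2239.9, 1536 and 1623, 2502 and 2394 and 1529.7 and 1563 normalized counts. All siPHF13 libraries lay below all control libraries, and NFYA fell with depletion without TGFβ (log2 fold change -0.52, adjusted p = 5.35e-05, limma) and, past the fold threshold, with it (log2 fold change -0.66, adjusted p = 5.83e-06). TFDP2, a dimer partner of E2F proteins, fell past both thresholds in both settings (log2 fold changes -0.73 and -0.59). CDKN1A, which encodes the CDK inhibitor p21, was read at 9884 and 9137 in siControl, 4686 and 4492 in siPHF13, 20796 and 18979 in siControl + TGFβ and 8131 and 7401 in siPHF13 + TGFβ. It rose with TGFβ in both siRNA settings and fell with depletion in both, past both thresholds in all 4 comparisons (log2 fold changes 1.06 and 0.76, and -1.05 and -1.36), and its level with TGFβ after depletion stayed below that of untreated controls. Its part in the values of the mitotic genes was not tested.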

How the data were processed

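Libraries were made from total RNA with the VAHTS mRNA-seq V3 kit and sequenced as 150-bp pairs on a HiSeq X. The authors trimmed reads with Trim Galore 0.4.1, mapped them to hg19 with STAR 2.7.0, assigned reads to gene exons with htseq-count 0.12.4 and normalized with DESeq2. The annotation release, the strand setting and the DESeq2 version are not given in the sources used here. The deposited table holds a signal per gene and library, the read count divided by a size factor, and whole reads were recovered from its step. The authors' own comparison tables hold condition means, fold changes and p-values; only their means were used, to match library columns to conditions.

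Conditions were compared with limma 3.58.1 in R 4.3.3 (trended prior) on log2(normalized count + 1), in one fit of all 8 libraries without a replicate block, with Benjamini-Hochberg adjustment over 13307 genes. Calls needed an adjusted p below 0.05 together with a log2 fold change beyond 0.58 in either direction. A minimum of 10 in 2 libraries removed 0 genes. Fold changes on this scale understate those of low genes. Because the values are normalized counts and not raw counts, edgeR 4.0.16 and DESeq2 1.42.0 on recovered reads served as alternatives. Coordinates of genes and overlaps are of GRCh37, promoters of GRCh38.p14. Overlaps of further members with genes on the opposite strand are not reported here. Intervals for counting error are not given.

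Members and gene lists were chosen with earlier results of these data known. Values are given for members past both thresholds in a comparison, for the 2 largest rises and falls in each, for 1 or 2 genes per role chosen by name, and for up to 4 genes of each other list and comparison. Other members are given by fold changes or by their range and counts, and the libraries of NDC80, NUF2 and TTK were added after their values were seen. The fit was run on simulated counts in which genes changed only in siPHF13 without TGFβ and by more than the fold threshold. Smaller changes, responses to TGFβ and the interaction were not simulated, and the outcome is not given here.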

Additional observations from a re-analysis of the deposited data

Results flagged for a closer look

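NEK2 is listed because its response to TGFβ differed between siControl and siPHF13 cells in a test of the difference itself. The interaction was 0.64 on the log2 scale (adjusted p = 0.0208, limma with Benjamini-Hochberg adjustment over all genes), with a log2 response of -0.75 in siControl cells and of -0.10 in siPHF13 cells. Over the fits that each left out 1 library the interaction lay between 0.59 and 0.69, its adjusted p reached 0.204, and it passed in 2 of 8. The adjusted p was 0.016 after correction for GC content and transcript length, 0.0189 with edgeR and 2.03e-04 with DESeq2 on whole reads.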

How the results depend on the processing

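With 2 libraries per condition and a median fall of -0.48, many members sit near the fold threshold, so counts past both thresholds are less stable than directions; no median changed sign. Without the fold threshold the counts were 20 for depletion, 48 for TGFβ in siControl, 33 for depletion with TGFβ and 6 for TGFβ in siPHF13. With only the libraries compared, the members past the adjusted p alone were 31 for depletion (20 in the report) and 1 for TGFβ in siPHF13 (6). Correction for GC content (member median 42.7%, all genes 48.8%) and transcript length gave 0 members past both thresholds for TGFβ in siPHF13 and 4 past the adjusted p for the interaction, and DESeq2 gave 13 for the latter. The cause was not tested. Over the alternatives other than leaving out 1 library, 130 counts and medians stayed near the reported value and 10 did not. Near meant within 1.5 times for counts and within the standard deviation between replicates for medians. In checks of single named genes and PHF13, 4 calls were lost and 1 was gained. The other 1300 checks kept their status, and most of these were of differences called in neither fit.

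Of 65 differences of named members under an adjusted p of 0.05, 24 rose to 0.05 or more without at least 1 library and 7 after the GC and length correction. Leaving out each library gave ranges for members past both thresholds of 5 to 12 for TGFβ in siControl, 4 to 7 for depletion with TGFβ, 0 to 1 for TGFβ in siPHF13 and 0 to 3 for the interaction. Past the adjusted p alone they were 11 to 24 for depletion, 1 to 7 for TGFβ in siPHF13 and 0 to 19 for the interaction, where 19 came without siPHF13 + TGFβ replicate 1. Medians ranged from 0.20 to 0.28 for depletion with TGFβ, from -0.19 to -0.11 for TGFβ in siPHF13 and from 0.31 to 0.37 for the interaction.

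The replicate numbers do not mark a known pairing. Correlations of replicate deviations across genes ran from -0.25 to 0.27. Whether samples with the same number shared more than that number cannot be told from these values. With a replicate block, 2, 7, 4, 1 and 1 members passed both thresholds in the 5 comparisons, as without it, and 22 the adjusted p alone for depletion. With crossed pairing in a fit of the 4 libraries compared, chosen after seeing the data because siPHF13 and siPHF13 + TGFβ correlated at -0.25, 10 members passed the adjusted p for TGFβ in siPHF13, against 1 in the fit of those libraries without pairing.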

Other observations

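The replicates of siPHF13 + TGFβ differed most among the mitotic genes, with a median absolute log2 difference of 0.100 between them, against 0.0301 in siControl, 0.0647 in siPHF13 and 0.0838 in siControl + TGFβ. Replicate 2 was the higher one for 34 of the 50 genes in siPHF13 + TGFβ, for 32 in siControl, for 35 in siPHF13 and for 33 in siControl + TGFβ. Of 11201 genes that averaged 100 normalized counts or more, replicate 2 was the higher one for 5453, 5804, 5726 and 5770 in the same order. Within the siPHF13 + TGFβ pair most members were higher in replicate 2, by a median log2 difference of 0.066, against -0.006 for those 11201 genes. The extremes were SPC25, a kinetochore subunit, higher in replicate 2 by 0.40 on the log2 scale, and MKI67, the proliferation marker, lower by 0.39. Over all genes that averaged 100 normalized counts or more, the median absolute difference was also largest in this pair, at 0.126. It was 0.0593 in siControl, 0.0878 in siPHF13 and 0.0953 in siControl + TGFβ.

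Of the 44 members with a RefSeq promoter, KIF2C, NUF2, NDC80 and SMC2 held neither a CHR nor a CCAAT match in the window before the start. Their log2 fold changes with TGFβ in siControl cells were -0.50, -0.45, -0.52 and -0.15. All members ran from -0.75 to -0.15 with a median of -0.48. These genes were singled out after their promoters had been read, and no test was made.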
